A study of Mus musculus with 22 samples.

Results

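The 9 genes described here are Ccr7, Il7r, S1pr1, S1pr4, Tcf7, Lef1, Bach2, Satb1 and Ets1, a group named for naive and central memory T cells. The genes were taken from the 49671 genes of the count table by matching Ensembl identifiers to their symbols. They were measured by RNA sequencing of mouse TH2 cells, T helper cells polarised in culture towards type 2 cytokine production. In 11 libraries the cells had received calcitriol, the active hormone form of vitamin D, at 100 nM for the final 24 hours, and in 11 vehicle libraries they had received 2% ethanol in its place; all cells were harvested at day 5. Per the labels, all cells were wild type and came from Balb/c mice; males and females were obtained at 6 to 8 weeks of age and bred on diets with 400, 1000 or 4000 IU of vitamin D3 per kg, and the age of the mice that gave the cells is not stated. The labels do not give the mouse, sex, diet or culture behind a single library, whether the calcitriol cultures held ethanol, nor whether libraries of the 2 groups came from the same cultures. P-values therefore treat libraries as independent and measure only the spread between them, which may in part be technical. Replicate numbers follow the order of deposit and only name libraries.

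Naive and central memory T cells circulate between blood and lymph nodes. The chemokine receptor CCR7 draws them into lymph nodes, and receptors for sphingosine 1-phosphate (S1P), a lipid abundant in blood and lymph, let them leave again. The IL-7 receptor keeps resting cells alive, and the transcription factors TCF1 (encoded by Tcf7), LEF1, BACH2, SATB1 and ETS1 take part in establishing or holding the resting and memory programme. Activated effector cells such as TH2 cells usually lower many of these genes.

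Total counts ran from 3214171 to 12431051 per library in calcitriol (median 8534490) and from 3618784 to 20258430 in vehicle (median 7320919). Levels are given as CPM, counts scaled to a common library total with TMM factors. Of 11905 genes that passed the filter on low counts, 3755 (31.5%) passed an adjusted p of 0.05 in edgeR's quasi-likelihood test of calcitriol against vehicle, 1911 (16.1%) higher and 1844 (15.5%) lower. Calls in the higher direction made up 50.9% of these, and 31.4% with libraries scaled by total count alone. Replicates 1 and 2 of each group lay apart from the other libraries on the second principal component, at -16.84 and -16.81 in calcitriol and -12.44 and -14.33 in vehicle. The T cell markers summed to between 3416 and 3894 CPM in calcitriol and between 3254 and 4075 CPM in vehicle libraries. Among these, Cd3d, Cd3g and Cd3e, chains of the T cell receptor complex, rose by 0.35, 0.30 and 0.20 on the log2 scale, Cd5 and Cd4 fell by 0.31 and 0.13, and the other 3 did not pass. Of the 5 TH2 markers Gata3, Il4, Il5 and Il13 were detected throughout, while Il1rl1, the IL-33 receptor, had at most 1.68 CPM in calcitriol and 1.37 CPM in vehicle libraries. The cytokine gene Il13 fell, to 203 ± 106 CPM in calcitriol libraries, against 333 ± 104 CPM in vehicle libraries (SD, n = 11 each; log2 change -0.72 ± 0.23 (SE), edgeR adjusted p = 0.0204), and Gata3, Il4 and Il5 did not pass. The part of these shifts in the changes of the 9 genes was not tested.

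Calcitriol moved the 9 genes in both directions. All 9 passed the filter, and 7 of them passed the test: Ets1, Satb1, S1pr4 and Il7r rose, and Ccr7, Tcf7 and Bach2 fell, while S1pr1 and Lef1 did not pass. Among all genes tested 16.1% were called higher and 15.5% lower. The genes were chosen with earlier results of these data known, so their share of calls is a description. The groups did not overlap for 2 of the 9 genes, Ets1 and Satb1, against 4.36% of all genes tested (2.77% with calcitriol higher). The median log2 change was -0.11 over the 9 genes and -0.01 over all genes tested, and the median size of the change regardless of sign was 0.472 and 0.147. Since whole cultures were sequenced, fewer cells that express a gene and less of its RNA per cell cannot be told apart.

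**Figure D1:**
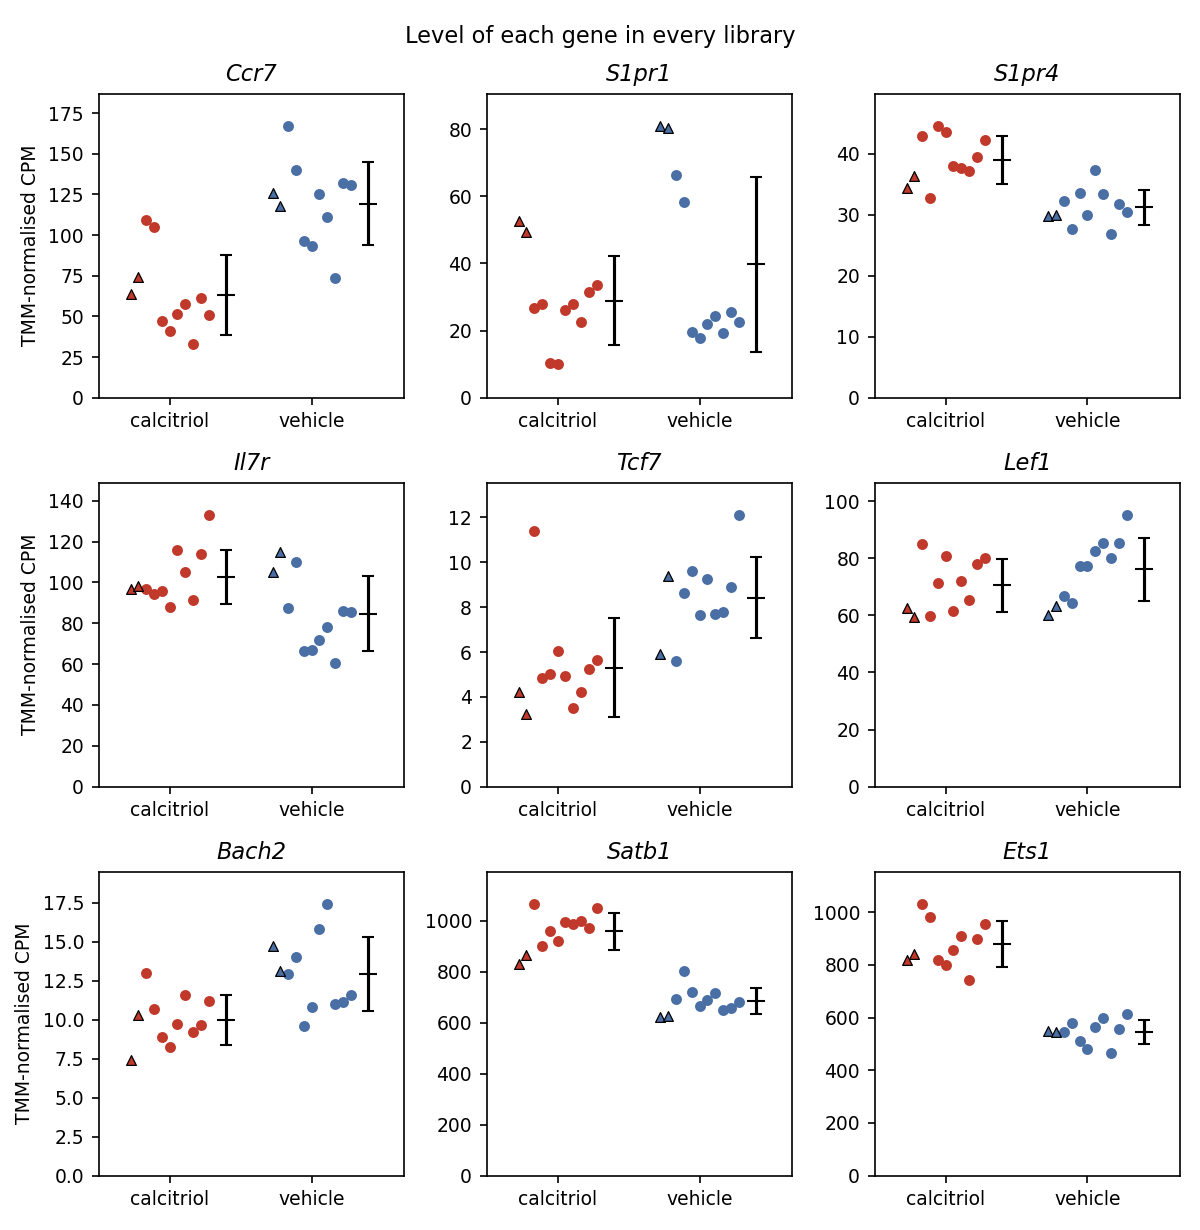
Each point is the TMM-normalised CPM of 1 library, with calcitriol libraries in red on the left and vehicle libraries in blue on the right of each panel (n = 11 each), replicates 1 and 2 as outlined triangles, and black bars for mean and SD; sideways spread within a group only separates points. The 2 groups are fully separate for Satb1 and Ets1, Ccr7 is lower with calcitriol at 63.1 against 119 CPM on average, and S1pr1 splits into separate levels within both groups.

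Ccr7 (ENSMUSG00000037944, GRCm38 chromosome 11, 99144196 to 99155077), the receptor for the lymph node chemokines CCL19 and CCL21, showed the largest change among the 9 genes. Its level ran from 33.3 through a median of 57.9 to 109 CPM in calcitriol libraries, against 73.6 through 125 to 167 CPM in vehicle libraries. In 8 of 11 calcitriol libraries it lay below every vehicle library, and the 2 highest calcitriol values, 109 and 105 CPM in replicates 3 and 4, stood above a gap from the other 9, which reached at most 74.1 CPM. The log2 change was -0.94 ± 0.18 (SE, n = 11 each; edgeR adjusted p = 0.000345), that is 0.523 of the vehicle level. Over 34 alternative settings it ran from -1.09 to -0.87 and kept its call.

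S1pr1 (ENSMUSG00000045092, chromosome 3, 115710433 to 115715072), the S1P receptor that T cells need to leave lymph nodes, varied more between libraries than any of the other 8 genes, with a coefficient of variation of 46.1% in calcitriol and 65.4% in vehicle. It ran from 9.95 through a median of 27.8 to 52.7 CPM in calcitriol libraries, against 17.8 through 24.3 to 80.9 CPM in vehicle libraries. The vehicle values fell into separate levels, 58.3 to 80.9 CPM in replicates 1 to 4 and 17.8 to 25.4 CPM in the other 7. In calcitriol, replicates 5 and 6 had 10.2 and 9.95 CPM, and the other 9 had at least 22.6 CPM. The log2 change was -0.47 ± 0.34 (SE; edgeR adjusted p = 0.325), with a 95% interval of -1.18 to 0.24, which leaves both a marked fall and a small increase possible. Without replicates 1 and 2 of both groups the change was -0.34 (adjusted p = 0.444).

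S1pr4 (ENSMUSG00000044199, chromosome 10, 81497747 to 81500132), a second S1P receptor of lymphocytes, was steady between libraries and rose. It ran from 32.7 through 38.0 to 44.5 CPM in calcitriol libraries, against 26.8 through 30.4 to 37.3 CPM in vehicle libraries. The groups overlapped narrowly, with 7 of 11 calcitriol libraries above every vehicle library. This was a 1.25-fold increase, a log2 change of 0.32 ± 0.06 (SE; edgeR adjusted p = 0.000214). The ratio of S1pr1 to S1pr4 within a library was compared directly, as the difference of their log2 CPM. It averaged -0.58 ± 0.86 in calcitriol and 0.09 ± 0.93 in vehicle libraries (SD, n = 11 each), and the difference of -0.67 did not pass a two-sided permutation test that treats the libraries as unpaired (adjusted p = 0.0904 over 2 pairs). The test did pass without calcitriol replicate 1, where the difference was -0.79 (permutation test, adjusted p = 0.0489).

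Il7r (ENSMUSG00000003882, chromosome 15, 9505788 to 9530176), the alpha chain shared by the receptors for IL-7 and TSLP, rose slightly. It ran from 88.2 through 96.8 to 133 CPM in calcitriol libraries, against 60.4 through 85.3 to 115 CPM in vehicle libraries. Only 2 calcitriol libraries lay above every vehicle library, but 8 of 11 vehicle libraries lay below every calcitriol library, the exceptions being vehicle replicates 1, 2 and 4 at 105 to 115 CPM. On the log2 scale Il7r rose by 0.28 ± 0.10 (SE; edgeR adjusted p = 0.037). This call was lost without calcitriol replicate 7, 8, 10 or 11 or without vehicle replicate 5, 6, 7, 8 or 9, where the log2 change was 0.23 to 0.27 (adjusted p = 0.052 to 0.0749). With each pair of libraries that were mutually most alike summed, the log2 change was 0.23 (adjusted p = 0.263), and over all 34 alternatives the adjusted p ran from 0.00201 to 0.263.

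The start regions of Il7r and S1pr4, the receptors that rose and whose windows hold a vitamin D receptor half-site, are shown beside that of Satb1, which rose further and whose window holds none. RefSeq (build GRCm38.p6) lists a promoter window, 250 bases before to 50 after the start, for 6 of the 9 genes; where several starts are listed, the most upstream was used. Capitals mark matches on either strand to the vitamin D receptor half-site (the word AGGTCA, the word AGTTCA, the word GGGTCA and the word GGTTCA), the ETS motif CCGGAA, the TCF and LEF motif CTTTGA or, on the forward strand, the TATA motif TATAAA.
Il7r promoter, chr15:9529827-9530126, minus strand: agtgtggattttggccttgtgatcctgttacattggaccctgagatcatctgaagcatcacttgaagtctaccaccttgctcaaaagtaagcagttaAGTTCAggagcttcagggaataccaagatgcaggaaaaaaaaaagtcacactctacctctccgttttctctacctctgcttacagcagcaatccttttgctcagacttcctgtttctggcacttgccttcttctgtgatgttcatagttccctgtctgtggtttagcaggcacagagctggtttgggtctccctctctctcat
S1pr4 promoter, chr10:81500088-81500387, minus strand: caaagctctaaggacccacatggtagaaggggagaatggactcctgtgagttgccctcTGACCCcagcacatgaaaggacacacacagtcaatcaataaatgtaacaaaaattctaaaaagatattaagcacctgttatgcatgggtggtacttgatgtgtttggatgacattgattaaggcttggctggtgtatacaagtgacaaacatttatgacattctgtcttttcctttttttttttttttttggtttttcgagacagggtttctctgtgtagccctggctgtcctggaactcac
Satb1 promoter, chr17:51833241-51833540, minus strand: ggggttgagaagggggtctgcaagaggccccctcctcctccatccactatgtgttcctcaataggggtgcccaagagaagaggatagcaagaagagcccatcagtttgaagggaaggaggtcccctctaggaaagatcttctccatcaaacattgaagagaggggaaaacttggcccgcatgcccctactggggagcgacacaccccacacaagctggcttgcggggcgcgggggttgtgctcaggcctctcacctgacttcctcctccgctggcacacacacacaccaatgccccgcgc
Il7r and S1pr4 each held 1 half-site, starting 153 and 192 bases before the start, and so did Lef1, 144 bases before it; 43.7% of all 32851 listed windows held at least 1. The vitamin D receptor direct repeat, a pair of half-sites with 3 bases between them, matched 13 windows (0.0396%) and none of these 6. The windows of Tcf7 and Satb1 held none of the motifs. That of Bach2 held 1 ETS and 1 TCF and LEF match, which 14.9% and 16% of all windows held. The Bach2 window, 32417185 to 32417484, lay well inside the gene, whose first annotated base is 32238804. The Il7r window also lay within the bounds of its gene, 9505788 to 9530176. Both windows are therefore not the regions before the outermost annotated starts. A match is a description of letters, not a binding site.

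Tcf7 (ENSMUSG00000000782, chromosome 11, 52252371 to 52283014) fell. It encodes TCF1, a partner of beta-catenin needed for memory and follicular helper T cells, which also promotes Gata3 expression early in TH2 polarisation. Its level was low, from 3.22 through 4.95 to 11.4 CPM in calcitriol libraries, against 5.61 through 8.65 to 12.1 CPM in vehicle libraries, resting on 481 counts in all calcitriol and 825 in all vehicle libraries. In 8 of 11 calcitriol libraries it lay below every vehicle library, and calcitriol replicate 3, at 11.4 CPM, stood apart from the other 10, which reached at most 6.03 CPM. Its change on the log2 scale was -0.67 ± 0.16 (SE; edgeR adjusted p = 0.00205), or -0.83 without calcitriol replicate 3.

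Lef1 (ENSMUSG00000027985, chromosome 3, 131110471 to 131224356), which encodes the close relative of TCF1 with the same DNA-binding domain, did not pass. It ran from 59.3 through 71.4 to 85.1 CPM in calcitriol libraries, against 60.0 through 77.4 to 95.1 CPM in vehicle libraries, and the groups overlapped over most of their range. The log2 change was -0.11 ± 0.08 (SE; edgeR adjusted p = 0.324), with a 95% interval of -0.27 to 0.05, and with surrogate variables in the fit it was called lower at -0.13 (adjusted p = 0.014). The log2 ratio of Tcf7 to Lef1 within a library was -3.74 ± 0.35 in calcitriol and -3.16 ± 0.25 in vehicle libraries (SD, n = 11 each). The difference of -0.59 passed a two-sided permutation test (adjusted p = 0.00092 over 2 pairs), so Tcf7 fell relative to Lef1. This difference kept its direction and call in 25 alternatives, from -0.67 to -0.50.

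Bach2 (ENSMUSG00000040270, chromosome 4, 32238804 to 32586108), a repressor that restrains effector genes in naive T cells and TH2 cytokine genes in mice, also fell. It ran from 7.41 through 9.70 to 13.0 CPM in calcitriol libraries, against 9.61 through 12.9 to 17.4 CPM in vehicle libraries. The groups overlapped, with 4 calcitriol libraries below every vehicle library and 5 vehicle libraries above every calcitriol library. Calcitriol over vehicle gave a log2 change of -0.38 ± 0.11 (SE; edgeR adjusted p = 0.00619). Of the transcripts annotated inside the gene, the sense intronic Bach2it1 had a log2 change of 0.33 (adjusted p = 0.319).

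Satb1 and Ets1 were the most abundant of the 9 genes in CPM, and both rose with no overlap between groups. Satb1 (ENSMUSG00000023927, chromosome 17, 51736187 to 51833290), a chromatin organiser needed for T cell development and for the loop structure of the TH2 cytokine locus, ran from 830 through 972 to 1065 CPM in calcitriol libraries, against 623 through 683 to 804 CPM in vehicle libraries. Each of the 11 calcitriol values exceeded each vehicle value, and the coefficient of variation was 7.62% in calcitriol and 7.46% in vehicle, the smallest of the 9 genes. Replicates 1 and 2 held the 2 lowest values of both groups, at 830 and 866 CPM in calcitriol and 623 and 627 CPM in vehicle. Satb1 rose 1.4-fold, by 0.49 ± 0.05 on the log2 scale (SE; edgeR adjusted p = 6.12e-09). Another 6 transcripts are annotated within the bounds of Satb1, and all 6 rose, by 0.48 to 0.63 on the log2 scale (highest adjusted p = 0.017). Of these, Gm6934, on the opposite strand, had a log2 change of 0.61 with no overlap between groups. The other nested transcripts lie on the same strand as Satb1, so strand cannot separate their reads from those of Satb1. Among them Gm36931 shares 156 exon bases with Satb1, and the rest share 0. For Gm6934, which shares 128 exon bases, the strand setting of the counting is not given. Whether these increases are separate from that of Satb1 was not tested.

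Ets1 (ENSMUSG00000032035, chromosome 9, 32636221 to 32757820), a transcription factor that supports T cell survival and the IL-7 receptor gene, had the largest increase. It ran from 742 through 858 to 1031 CPM in calcitriol libraries, against 466 through 551 to 613 CPM in vehicle libraries. The lowest calcitriol value, 742 CPM, still exceeded the highest vehicle value, 613 CPM. Ets1 rose 1.6-fold, by 0.68 ± 0.06 on the log2 scale (SE; edgeR adjusted p = 1.84e-10), and over 34 alternatives it ran from 0.61 to 0.70.

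**Figure D2:**
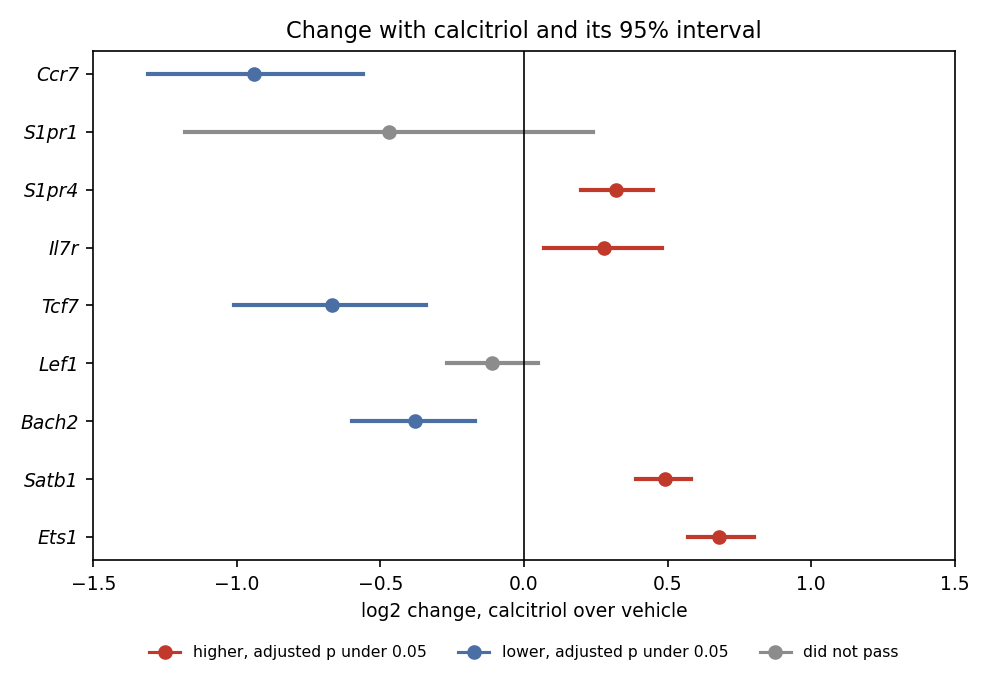
Points show the log2 change of each gene, calcitriol over vehicle, with its 95% interval from edgeR (n = 11 libraries each); red genes were called higher, blue genes lower, and grey genes did not pass an adjusted p of 0.05. Ccr7, Tcf7 and Bach2 lie left of 0 and S1pr4, Il7r, Satb1 and Ets1 right of it, while the intervals of S1pr1 and Lef1 include 0.

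To compare levels between genes, CPM was divided by the length of all annotated exons in kilobases. This length pools the exons of all transcripts of a gene, and was 19.03 for Satb1, 8.476 for Ets1 and 1.978 for Ccr7. The order of the genes therefore depends on the annotation. On this scale Ets1 stood first in both groups, at a median of 101 CPM per kilobase in calcitriol and 65.0 in vehicle libraries. Satb1 and Ccr7 changed places. Satb1 came next in calcitriol libraries at 51.1, ahead of Ccr7 at 29.2, whereas in vehicle libraries Ccr7 had 63.2 and Satb1 35.9 CPM per kilobase, and the ranges of the pair overlapped in both groups. Il7r followed at 20.8 in calcitriol and 18.3 in vehicle libraries, and S1pr4 at 15.9 in calcitriol and 12.7 in vehicle libraries. S1pr1 and Lef1, with overlapping ranges, had medians of 9.12 and 8.13 in calcitriol and 7.97 and 8.81 in vehicle libraries. Tcf7, at 1.88 in calcitriol and 3.29 in vehicle, and Bach2, at 0.976 in calcitriol and 1.30 in vehicle, stood last. In vehicle libraries the ranges of Ets1 and Ccr7 also overlapped, whereas in calcitriol libraries every value of Ets1 exceeded those of the other 8 genes.

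**Figure D3:**
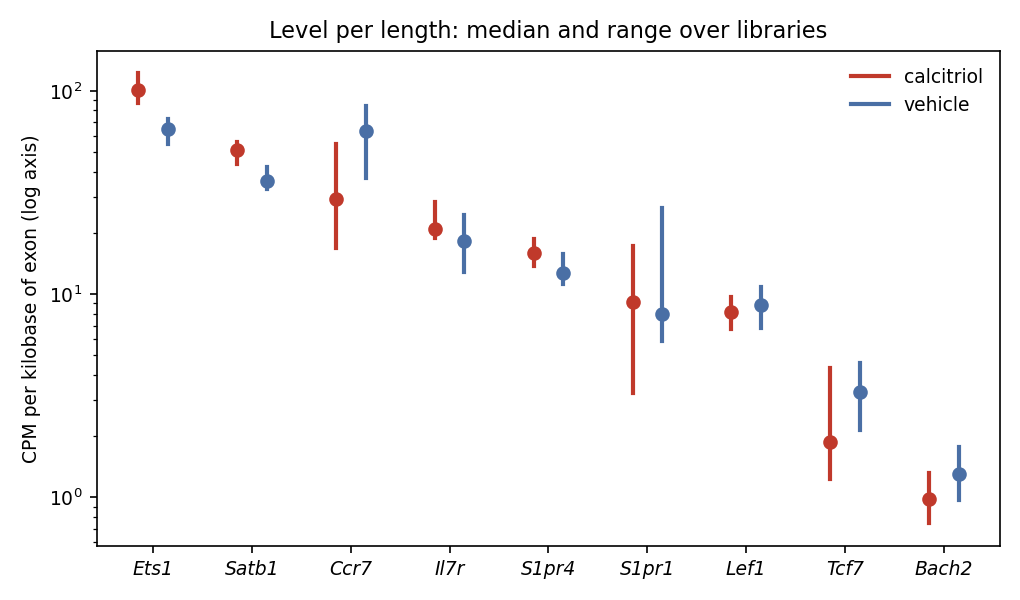
Points and lines give the median and the range over 11 libraries of CPM per kilobase of exon, on a log axis, with calcitriol in red left of vehicle in blue; genes are ordered by their median in calcitriol. The medians span from 101 for Ets1 to 0.976 for Bach2 in calcitriol libraries, and Ccr7 stands below Satb1 in calcitriol but above it in vehicle.

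For each gene that passed the test, the 2 other genes with the most similar pattern were found by the root-mean-square difference of log2 CPM over the 22 libraries after each gene was centred on its own mean. Ets1 was most like Pla2g12a, a secreted phospholipase, and Sash3, a lymphocyte adaptor (differences of 0.09 and 0.11), which rose by 0.63 and 0.56 on the log2 scale. Satb1 was most like Rmc1 and Il2ra, the alpha chain of the IL-2 receptor (0.10 and 0.11), and S1pr4 was most like Ankrd11 and the integrin chain Itgb2 (0.12 each). Il7r was nearest to Map2k6 and Ddx58 (0.16 each), and Bach2 to Rsph3a and Ap2b1 (0.16 and 0.17). Ccr7 was nearest to Ppp2r3a and Plk2 (0.22 and 0.27), which fell by 0.75 and 0.70, and Tcf7 to Sh3bp5 and Socs2 (0.30 and 0.31). The measure favours genes that vary little, so the distances are smallest for the steady genes.

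Other genes of naive T cells and quiescence also went both ways, with 4 of 16 tested higher and 3 lower. Over all genes tested 31.5% were called in either direction, the share to set beside this and each later list. The lists were chosen with earlier results of these data known, so their counts are a description. Foxo1, the factor that maintains Il7r and homing genes in naive T cells, rose by 0.31 ± 0.07 (SE) to 200 ± 22.5 CPM in calcitriol libraries, against 161 ± 23.2 CPM in vehicle libraries (SD, n = 11 each; edgeR adjusted p = 0.00137). Klf2, which drives S1pr1, rose by 0.86 ± 0.22 on the log2 scale, at a median of 5.80 CPM in calcitriol and 2.96 CPM in vehicle libraries (edgeR adjusted p = 0.00311). It is named for its role and not by the rule, and its call was not followed over the alternative settings. Klf3 and Foxp1, of the same list, had log2 changes of 0.21 and 0.04 and did not pass. Nsg2 rose by 1.21, and Dapl1 and the actin crosslinker Actn1 fell by 1.46 and 0.68 on the log2 scale. The list median was 0.22, with 9 genes not called.

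Of 8 tested memory and stem-like genes 2 rose and 3 fell. Cd27, a costimulatory receptor of resting and memory T cells, rose by 0.61 ± 0.15 and Bcl6, the factor of follicular helper cells, by 0.83 ± 0.26; the call of Bcl6 was lost with libraries summed in sets (0.82, adjusted p = 0.0827). Id3, an inhibitor of E proteins, and Slamf6, a receptor kept on stem-like T cells, fell by 0.74 and 0.51 on the log2 scale. The list median was -0.21.

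In IL-7 and TSLP receptor signalling, 5 of 12 genes rose and 2 fell. Il2rg, the common gamma chain that pairs with Il7r for IL-7, rose to 276 ± 17.0 CPM in calcitriol libraries, against 175 ± 9.24 CPM in vehicle libraries (SD, n = 11 each), a log2 change of 0.65 ± 0.04 (SE; edgeR adjusted p = 1.96e-12). Crlf2, which pairs with Il7r in the TSLP receptor, rose by 0.57 ± 0.09 (adjusted p = 7.97e-06). Socs2, a feedback inhibitor, and the survival gene Bcl2l1 fell by 0.47 and 0.68 on the log2 scale. The list median was 0.04.

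Among S1P receptors and enzymes, 6 of 11 genes passed the filter, of which 2 rose and 3 fell. Sgpl1 and Sgpp1, the lyase and phosphatase that degrade S1P, rose by 0.44 ± 0.06 and 0.34 ± 0.06. Sphk1, a kinase that makes S1P, fell, at 1.01 ± 0.591 CPM in calcitriol and 2.65 ± 0.504 CPM in vehicle libraries (SD, n = 11 each; edgeR adjusted p = 9.56e-06). Cd69, an early activation antigen that removes S1PR1 from the cell surface, fell by 0.57 on the log2 scale, a call lost with libraries summed in sets (-0.51, adjusted p = 0.0956). The list median was -0.03.

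Of 10 adhesion and homing receptors 5 rose and 2 fell, with a list median of 0.20. Gpr183, a receptor for oxysterols that guides T cells within lymphoid tissue, had the largest increase of this list, to 64.0 ± 13.0 CPM in calcitriol libraries, against 22.1 ± 5.11 CPM in vehicle libraries (SD, n = 11 each; log2 change 1.54 ± 0.13, edgeR adjusted p = 7.64e-10). The integrin chains Itgal, of LFA-1, and Itgb7, of the gut-homing integrins, rose by 0.69 and 0.48, and Itgb1 fell by 0.30 on the log2 scale.

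Partners of the transcription factors differed from list to list. Of the 7 tested TCF and beta-catenin partners 1 rose, Ctnnb1, which encodes beta-catenin (log2 change 0.12 ± 0.04, edgeR adjusted p = 0.0216), and 0 fell; its call was lost with libraries summed in sets (adjusted p = 0.0771), without the filter (adjusted p = 0.0846) and with total-count scaling (adjusted p = 0.361). The corepressors Tle1 and Tle4 and the kinase Gsk3b had log2 changes of -0.15, 0.28 and 0.14 and did not pass. Gsk3b was called with surrogate variables (adjusted p = 0.0307), without the 4 libraries apart (0.037) and without calcitriol replicate 2 (0.0377), and Tle4 without calcitriol replicate 6 (0.0485). The list median was 0.12. Among BACH, small MAF and AP-1 genes 5 of 12 rose and 3 fell (median 0.16). Fosl2 and Batf, AP-1 factors, rose by 0.75 and 0.23, and Maff and Fos fell by 0.71 and 0.76 on the log2 scale. Jun had the largest change of this list, an increase of 1.06 ± 0.23 (SE, edgeR adjusted p = 0.00128). Jun was at 194 ± 66.3 CPM in calcitriol and 93.1 ± 31.7 CPM in vehicle libraries (SD, n = 11 each), and its call was not followed over the alternative settings. Of 11 other ETS factors tested 3 rose and 2 fell (median 0.03), with Fli1 and Elf2 at 0.60 and 0.18 and Etv3 and Elk3 at -0.48 and -0.27. Elf2 lost its call with total-count scaling (0.11, adjusted p = 0.0837) and Elk3 without replicates 1 and 2 of both groups (-0.21, adjusted p = 0.0697). Fli1, a regulator of lymphocyte genes that neighbours Ets1 on chromosome 9, was at 50.1 ± 7.38 CPM in calcitriol and 33.1 ± 5.48 CPM in vehicle libraries (SD, n = 11 each).

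Genes of effector differentiation, many of which oppose the naive programme, were called higher for 6 of 12 and lower for 2, with a list median of 0.18. Maf, an activator of Il4, and Il2ra, a target of IL-2 signalling, rose by 0.88 ± 0.07 and 0.45 ± 0.04. The largest change of the list was the increase of Gzmb, by 1.70 ± 0.21 (SE, edgeR adjusted p = 1.65e-06). Gzmb was at 44.6 ± 18.3 CPM in calcitriol and 13.9 ± 3.07 CPM in vehicle libraries (SD, n = 11 each), and its call was not followed over the alternative settings. Bhlhe40 and Tbx21, factors that favour inflammatory cytokines and the TH1 fate, fell by 1.51 and 1.26 on the log2 scale.

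**Figure D4:**
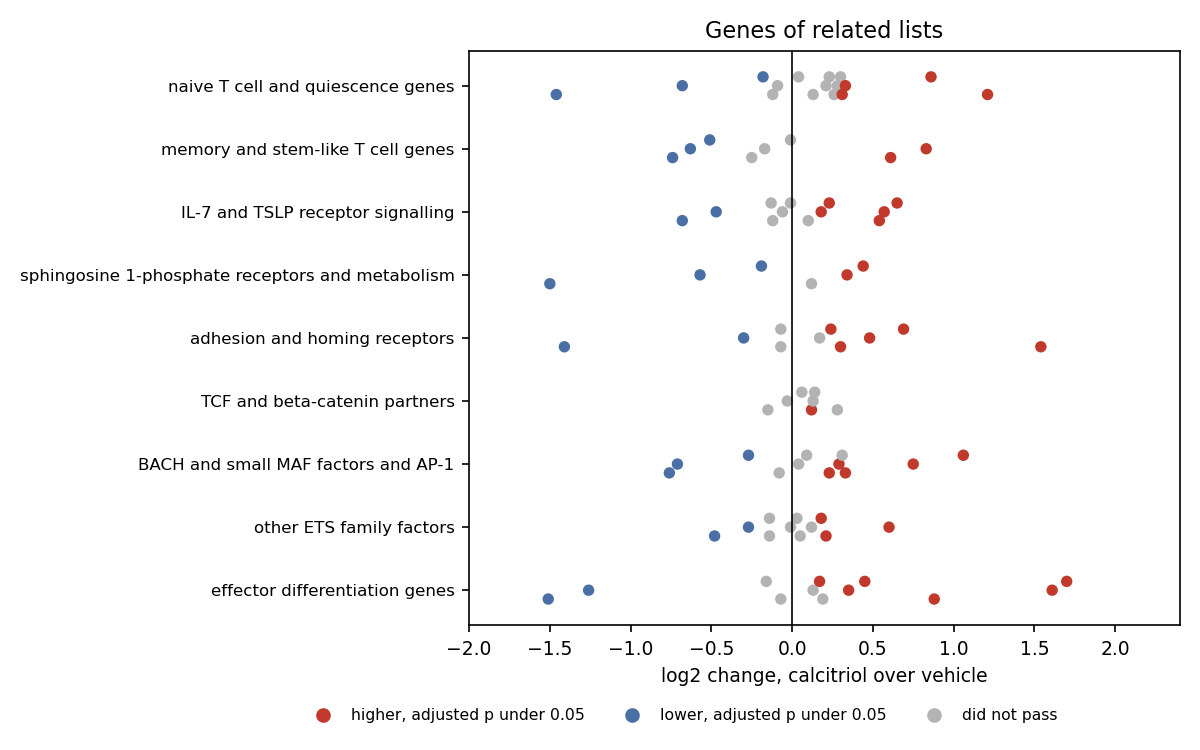
Each point is 1 tested gene of a related list, placed at its log2 change, calcitriol over vehicle; red and blue genes passed an adjusted p of 0.05 and grey genes did not, and the vertical spread within a list only separates points. Every list except that of TCF and beta-catenin partners, where 1 of 7 genes was called, holds genes that rose and genes that fell.

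Markers of other cells that could express these genes were low. The 5 B cell markers summed to 1.56 to 5.43 CPM in calcitriol and 1.69 to 7.16 CPM in vehicle libraries, with Cd79b alone above the filter and not called. The 4 dendritic cell markers summed to 3.85 to 9.34 CPM in calcitriol and 6.63 to 10.4 CPM in vehicle libraries; 1 of the 2 tested, Zbtb46, fell by 0.90 on the log2 scale, and Flt3 and Siglech were below the filter. Of the 2 regulatory T cell markers, Ikzf2 fell by 0.79 on the log2 scale, and both summed to 1.75 to 5.32 CPM in calcitriol and 3.01 to 8.65 CPM in vehicle libraries. Myeloid, NK and erythroid markers summed to at most 1.71 CPM in any library, with Ncr1 among those at 0 throughout. The CD8 T cell markers summed to 2.52 to 9.53 CPM in calcitriol and 3.87 to 8.36 CPM in vehicle libraries. Nearly all of this was Cd8b1, as Cd8a reached at most 0.285 CPM in calcitriol and 0.289 CPM in vehicle libraries. The part of such cells in the changes of Ccr7, Tcf7 and Bach2 was not tested.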

How the data were processed

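A stranded kit for total RNA was used, per the labels' protocols. Whole-number counts by Ensembl gene, deposited by the authors without normalization, were read from 1 table whose 22 columns carry the sample titles. STAR 2.7.10a, HTSeq 0.13.5 and GRCm38 are named in the submitters' processing notes; no source used here gives the annotation release or the strand setting, so counts of overlapping genes are uncertain. Symbols, coordinates and exon lengths came from GENCODE M21 on the same build, where 259 of 49671 identifiers had no entry.

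Counts were filtered with filterByExpr and scaled with TMM factors in edgeR 4.0.16 (R 4.3.3), and calcitriol was tested against vehicle with the quasi-likelihood F test (robust, no covariate, Benjamini-Hochberg over 11905 genes, threshold 0.05). SE is the log2 change divided by the root of F. Gene ratios used log2 CPM with a prior count of 2 and two-sided permutation tests with 100000 resamples, whose smallest p is 2e-05. Reads carry no molecular identifiers, so counting precision is not given. Over 110 pairs of libraries within groups the chi-square per degree of freedom was at least 2.52, so none was merged in the main test. This measure cannot tell whether libraries came from the same culture or mouse. On simulated counts of 11796 genes modelled on these libraries, with 200 changed, edgeR recovered 97.9% of changes of 1 on the log2 scale. It recovered 69.7% of changes of 0.5, and 5.26% of calls were false. The simulated libraries were drawn as independent, and far fewer genes changed than were called here. These shares therefore need not hold for the real libraries.

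The members, lists, tests and alternatives were chosen with earlier results of these data known. Named were all 9 members, up to 4 genes with the smallest p in each list, and the 2 nearest patterns of each called member; Klf2 and marker genes were named for their roles, and 1 listed gene is not reported here. Summed sets joined libraries of a group that were each other's best match over the 2000 most variable genes. Every joined pair had consecutive numbers, such as calcitriol replicates 1 and 2 or vehicle replicates 3 and 4. What such pairs share is not given in the labels. Alternatives were DESeq2 1.42.0, limma 3.58.1 (voom, also with quality weights), other scalings and filters, non-robust dispersion, 4 surrogate variables (sva 3.50.0), summing 6 sets of calcitriol and 7 of vehicle libraries, and leaving out libraries.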

Additional observations from a re-analysis of the deposited data

How the results depend on the processing

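Of the 9 genes, 7 kept direction and side of the threshold in all 34 alternatives: Ccr7, S1pr1, S1pr4, Tcf7, Bach2, Satb1 and Ets1. Il7r lost its call with total-count scaling (0.21), no filter (0.28) and summed sets (0.23); without single libraries its log2 change was 0.23 to 0.33. Lef1 passed with surrogate variables (-0.13), and without single libraries was at -0.14 to -0.07. The S1pr1 over S1pr4 difference was -0.79 to -0.52 without single libraries. The count of all genes called lower was 2878 with total-count scaling, 2802 with surrogate variables and 1156 with summed sets. With a filter of 5 CPM, which tests fewer genes, 2 naive genes and 1 memory gene rose, and 1 memory and 1 adhesion gene fell. With summed sets, which leave fewer samples, 1 memory gene rose and 1 S1P gene fell. Of TCF partners, 0 rose with total-count scaling, no filter or summed sets, and 2 with surrogate variables or without the 4 libraries apart; without single libraries 1 to 2 rose. With total-count scaling, 1 other ETS factor rose and 4 IL-7 genes fell. Surrogate variables gave 5 memory genes lower, and leaving out the 4 libraries gave 1 ETS factor lower. The cause of these shifts was not tested where none is named. Of 1218 values of 36 named list genes under alternatives, 1207 kept direction and side. These genes were named for the smallest p of their lists in the main fit, and most alternatives leave out only 1 library. This count was therefore in part set by those choices. No paired analysis was possible because the labels tie no library of one group to a library of the other, and numbers given in order of deposit pair none; how a pairing would move the calls was not tested. S1pr1 had the largest SE of the 9 genes, 0.34.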

Other observations

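Levels of several of the genes split the vehicle libraries in the same way, a pattern noticed after the values were seen and not tested. Vehicle replicates 1 to 4 held the 4 highest S1pr1 values, 58.3 to 80.9 CPM against 17.8 to 25.4 CPM in the other 7, and also the 4 lowest Lef1 values, 60.0 to 66.7 CPM against 77.1 to 95.1 CPM. Replicates 1, 2 and 4 of these held the highest Il7r values of their group, 105 to 115 CPM, and the other 8 vehicle libraries had 60.4 to 87.6 CPM. The same 4 libraries had the lowest vehicle scores on the second principal component of the 500 most variable genes, from -14.33 to -6.50, while the other 7 scored from 2.79 to 9.60. In calcitriol libraries S1pr1 was highest in replicates 1 and 2, at 52.7 and 49.3 CPM, and lowest in replicates 5 and 6, at 10.2 and 9.95 CPM, whose second component scores were 9.93 and 11.24. Libraries with the same number, which follows the order of deposit within each group, often had similar second component scores in both groups: replicates 5 and 6 scored 9.93 and 11.24 in calcitriol and 8.69 and 9.60 in vehicle, and replicate 9 scored 7.75 in calcitriol and 7.76 in vehicle. S1pr1 was lower in calcitriol replicates 1 to 6, at 9.95 to 52.7 CPM, than in vehicle replicates of the same number, at 17.8 to 80.9 CPM, and higher in calcitriol replicates 7 to 11, at 22.6 to 33.7 CPM, than in those of vehicle, at 19.4 to 25.4 CPM. What these libraries share is not given in the labels, so these values are a description with no test.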
